A study of Homo sapiens with 11 samples.

Results

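Transcripts with very long coding sequences, by their listed length, were examined in HEK293T, an established line from human embryonic kidney in which the large T antigen of SV40 is expressed. They are the table rows with a listed length of 2000 or more and at least 10 counts in at least 2 of the 6 RNA libraries, with rows merged where their counts were identical in all 11 libraries. This rule gave 718 long transcripts of 57719 transcripts in all that passed the same count rule. It used no comparison between genotypes. The files do not state the unit of the listed length. It was taken as that of the coding sequence because rows without a listed length held 0 counts in every library. That reading is uncertain, since the column also holds values down to -9, which a length cannot take. The transcripts carry UCSC-style identifiers that the sources used here do not pair with gene names, so functions of single transcripts are not given.

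Ribosome profiling and mRNA sequencing were done on wild-type cells and on 2 knockouts of the gene that the labels call CSAM (current symbol PCIF1), labelled CSAM-KO#1 and CSAM-KO#2 and called knockout 1 and knockout 2 here. RNA was measured in 2 libraries of each genotype. Footprints were measured in 2 libraries of each knockout and in 1 wild-type library, so wild-type footprint values have no replicate. All cells were HEK293T, and the labels give no treatment or time and do not say whether each knockout line is a single clone. Separate cultures are not stated for replicates either, and the p-values then reflect only how far these libraries spread, which may be technical. The knocked-out gene could not be looked up without gene names, and the labels could not be checked in that way.

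PCIF1 binds the transcribing RNA polymerase and adds a methyl group to an adenosine that directly follows the mRNA cap, at its N6 position. Ribosome profiling sequences the stretches of RNA that ribosomes protect from nuclease, and footprints divided by RNA, called translational efficiency, estimate how densely the RNA of a gene is occupied. Long coding sequences offer more codons for ribosomes to sit on, so levels are compared between transcripts of different length only per unit of length or as footprints over RNA.

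The long transcripts had listed lengths of 2003 to 8916 with a median of 2481.5. Of them, 365 were shorter than 2500, 149 lay from 2500 to under 3000, 104 from 3000 to under 4000, 58 from 4000 to under 5000, and 42 at 5000 or more. A further 79 merged rows of length 2000 or more had too few counts, with at most 14 RNA counts in any library. Long transcripts were not independent of one another. They fell into 408 blocks of 20 consecutive table lines, and 184 blocks held at least 2 of them. Within such a block the changes were nearly equal, with a median SD of 0.0057 in the log2 RNA change of knockout 1, against an SD of 0.46 between block means. Counts of long transcripts are therefore larger than counts of genes, and the number of blocks is given beside them.

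Library totals after merging were 40346318 to 63551193 counts for RNA and 8387752 to 17437453 for footprints. The long transcripts had a median over transcripts of 815 mean RNA counts per library, against 207 for all transcripts, but raw counts grow with length. Per 1000 units of listed length the median wild-type RNA level was lower in the 609 long transcripts tested in both assays. It was 8.61 CPM (CPM scales counts to an equal library total) against 25.2 CPM over all transcripts tested in both assays. Footprints were sparser. Of the 718 long transcripts, 609 in 339 blocks had at least 10 counts in at least 2 footprint libraries and could be tested for footprints and efficiency, and their median was 144 mean footprint counts. The other 109 were weakly expressed, with a median of 41 RNA counts in the first wild-type library against 1764 for those tested. Fewer cells and less RNA per cell cannot be told apart in such bulk libraries.

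In wild-type cells, long transcripts carried fewer footprints per RNA than shorter ones. The median level of log2 footprint CPM over RNA CPM was -0.80 in the 609 long transcripts and -0.18 over all 44089 transcripts tested. It fell steadily with length, from 0.22 in transcripts of up to 100 to -0.56 above 1200 and under 2000, and it went on falling beyond 2000. The medians there were -0.62, -0.76, -1.20, -1.31 and -2.02 in the 5 successive length classes. By the share of footprint counts over the share of RNA counts, which the abundant transcripts of a class dominate, the order was less even, at 0.691, 0.716, 0.460, 0.633 and 0.424. The class medians thus went on falling beyond 2000 in this single wild-type footprint library, while the summed ratio was lower in the last class than in the first with no steady order between.

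The same ratio was less low in both knockouts. Its median in the long transcripts was -0.49 in knockout 1 and -0.36 in knockout 2, while over all transcripts it was -0.14 and -0.17. Above 1200 and under 2000 it was also less low, at -0.34 and -0.22 against -0.56 in wild type. Long transcripts of 5000 or more stayed lowest in every genotype, at -1.69 in knockout 1 and -1.61 in knockout 2. The spread between transcripts was wide, with wild-type quartiles of -1.74 and 0.06 in the long transcripts.

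**Figure D1:**
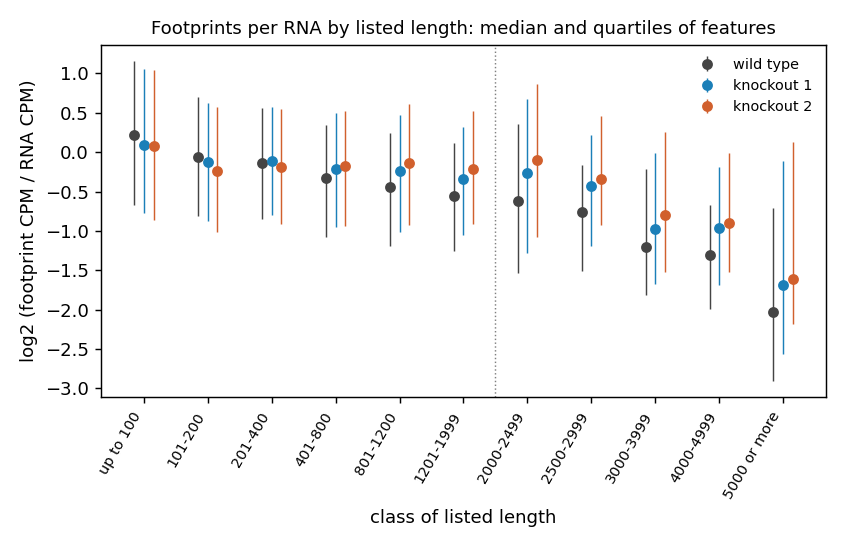
Median (points) and quartiles (bars) over transcripts of the log2 ratio of footprint CPM to RNA CPM, by class of listed length, for wild type and both knockouts. The wild-type median falls from 0.22 in the shortest class to -2.02 at 5000 or more, and both knockouts lie above wild type in every class above 400, below and beyond 2000.

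The share of all counts that fell on the long transcripts moved in opposite directions in the 2 assays. In RNA it was 2.48% and 2.34% in the wild-type libraries against 2.12% and 2.23% in knockout 1 and against 1.87% and 1.95% in knockout 2. Each knockout library was below both wild-type libraries, and knockout 2 was below knockout 1. In footprints the share was 1.55% in the wild-type library (exact binomial 95% interval 1.55% to 1.56%, counting error only). That interval takes counts as independent, which those of neighbouring transcripts were not, so it may be too narrow. The footprint shares were 1.83% and 1.88% in knockout 1 and 1.92% and 1.86% in knockout 2. All 4 knockout footprint libraries were above the wild-type library, and the knockouts overlapped each other.

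Relative to wild type, the mean share of RNA was 0.903-fold in knockout 1 and 0.793-fold in knockout 2, and that of footprints 1.19-fold and 1.22-fold. The pooled SD between replicates was 0.080 percentage points in RNA and 0.038 in footprints, smaller than each of these differences. The exact two-sided permutation test of wild type against both knockouts gave p = 0.133 in RNA, where the 15 splits allow no p below 0.067, and p = 0.2 in footprints, the smallest its 5 splits allow. Neither design can pass 0.05. The share of footprints over the share of RNA was 0.646 in wild type, 0.854 in knockout 1 and 0.990 in knockout 2. Above 1200 and under 2000 it was 0.726, 0.882 and 1.00.

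The 42 longest transcripts, of 5000 or more, took 0.0989% and 0.0982% of RNA counts in wild type against 0.0790% and 0.0859% in knockout 1 and against 0.0685% and 0.0729% in knockout 2. Here the genotypes were fully separated, at 0.837-fold and 0.717-fold of wild type, and the exact permutation p for wild type against both knockouts was 0.067. Their share of footprints was 0.0418% in wild type and 0.0467% to 0.0496% in the knockouts, 1.15-fold and 1.17-fold (exact permutation p = 0.2).

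**Figure D2:**
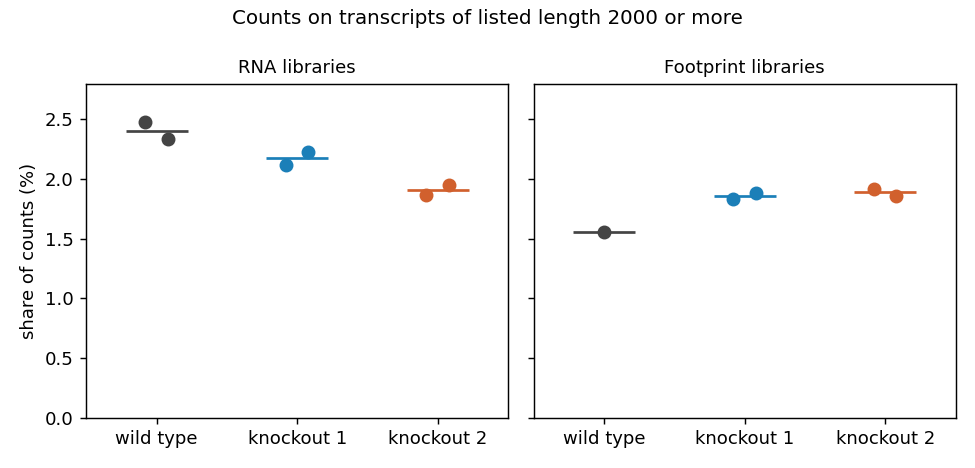
Share of all counts on the long transcripts in each library, as percent, for RNA (left) and footprints (right), with 1 point per library. Every knockout RNA library (1.87% to 2.23%) lies below both wild-type libraries, and every knockout footprint library (1.83% to 1.92%) lies above the single wild-type library at 1.55%.

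RNA of long transcripts was mostly lower in the knockouts. A transcript is called changed where the quasi-likelihood test of edgeR gave a Benjamini-Hochberg adjusted p under 0.05 over all transcripts. In knockout 1, 75 of 718 long transcripts (36 blocks) fell and 8 rose, where 2.08% of all 57719 transcripts fell and 2.18% rose. In knockout 2, 269 (145 blocks) fell and 13 rose, where 6.40% of all transcripts fell and 5.90% rose. The share that fell was thus 10.4% and 37.5%, above the background in both. In transcripts above 1200 and under 2000 it was 5.76% and 21.5%, so part of that gap was already present below 2000. Of the 718, 6 passed the count rule in 1 genotype only, so any RNA call for them is not independent of that rule.

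The fall was shallow and broad. The median log2 RNA change of the long transcripts was -0.14 in knockout 1 and -0.27 in knockout 2, against -0.0025 and 0.0011 over all transcripts, and 526 and 601 of the 718 had a negative value. By blocks, the mean change was negative in 293 and 337 of 408. In 372 transcripts both knockout 1 libraries were below both wild-type libraries, and in 81 both were above, where 23.8% and 23.5% of all transcripts were. For knockout 2 these numbers were 478 and 56, where 26.2% and 26.4% were. Of the transcripts called lower in knockout 2, 25 fell by more than 2-fold, as did 1.38% of all transcripts.

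The count for knockout 1 rested on both of its libraries, since leaving out replicate 1 left 17 fallen transcripts (2.38%, where 0.482% of all transcripts fell in that fit) and leaving out replicate 2 left 32 (4.46%, where 0.618% did). In knockout 2, leaving out replicate 1 left 167 (23.4%, where 4.06% did).

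Footprints of the long transcripts did not follow their RNA down. In knockout 1, 41 of the 609 tested (21 blocks) rose and 9 fell, where 2.40% of all 44410 transcripts tested rose and 3.64% fell. In knockout 2, 109 (61 blocks) rose and 14 fell, where 7.14% rose and 8.67% fell. Long transcripts thus rose in 6.73% and 17.9% and fell in 1.48% and 2.30%. The class above 1200 and under 2000 was similar, with 5.39% and 13.6% risen and 0.454% and 1.08% fallen, so most of that gap was already present below 2000. The median log2 footprint change was 0.15 and 0.19, against 0.016 and 0.010 over all transcripts, and 426 and 421 of the 609 had a positive value.

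The number of footprint calls depended on the tool and the library. DESeq2 called 12 long transcripts (1.97%) higher in knockout 1, where it called 0.513% of all, and 32 (5.25%) in knockout 2, where it called 1.27% of all. With edgeR, the count in knockout 1 was 63 without its replicate 1 (3.37% of all called) and 21 without its replicate 2 (1.70%), and the count in knockout 2 was 53 without its replicate 1 (3.91%). All comparisons of footprints with wild type assume that the lone wild-type library varies like the knockout libraries.

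Taking both assays for each of the 609 transcripts, the most common pattern was a negative RNA change with a positive footprint change, in 308 transcripts (50.6%) in knockout 1 and 351 (57.6%) in knockout 2, against 22.2% and 20.9% of all transcripts tested in both assays. Both changes were negative in 160 and 182, both positive in 118 and 70, and RNA positive with footprints negative in 23 and 6. Most of these single changes did not pass the test. Because most RNA changes were negative and most footprint changes positive, the most common pattern could arise without a link between the assays. Such a link was not tested. Called in both assays at once, 25 transcripts fell in RNA and rose in footprints in knockout 2, 12 fell in both and 8 rose in both, where 0.141%, 1.36% and 1.58% of all did. In knockout 1 these numbers were 0, 8 and 6, where 0.0045%, 0.401% and 0.542% of all did. The transcripts whose RNA fell had a median footprint change of -0.07 in knockout 1 (75 transcripts) and 0.0089 in knockout 2 (260 transcripts).

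**Figure D3:**
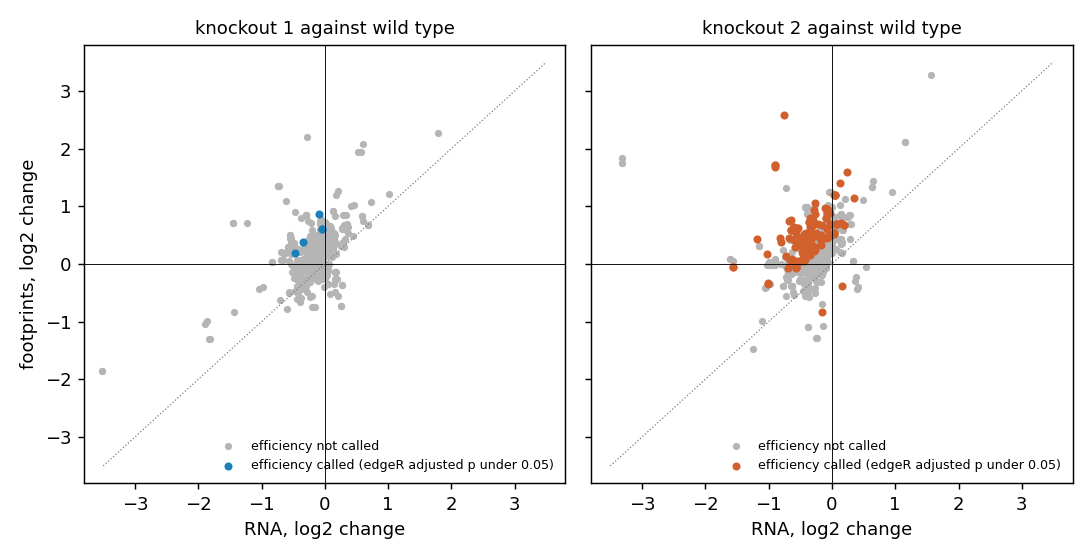
Log2 footprint change against log2 RNA change for the 609 long transcripts tested in both assays, knockout 1 (left) and knockout 2 (right) against wild type. Coloured points are transcripts whose translational efficiency was called; most points lie left of 0 in RNA and above 0 in footprints, in 308 transcripts of knockout 1 and 351 of knockout 2 both at once.

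Translational efficiency of the long transcripts was higher in the knockouts, tested as the interaction of assay and genotype in 1 edgeR model of all 11 libraries. In knockout 2, 136 of 609 (79 blocks) rose and 2 fell, where 2.64% of all 44089 transcripts tested rose and 5.50% fell. In knockout 1, 5 (4 blocks) rose and 0 fell, where 0.191% rose and 1.01% fell. The risen were 22.3% of the long transcripts in knockout 2 and 0.821% in knockout 1. Of those above 1200 and under 2000, 11.6% and 0.738% rose. At an unadjusted p under 0.05, 143 were higher and 1 lower in knockout 1, where 5.87% and 7.51% of all were. The median log2 change was 0.51 in knockout 2 and 0.30 in knockout 1, against 0.026 and 0.025 over all transcripts, and 577 and 524 of the 609 had a positive value. Rises of more than 2-fold were called for 44 long transcripts in knockout 2 and for 1.12% of all transcripts.

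The size of these counts was not stable. In knockout 2, 68 rose without footprint replicate 1, 87 without RNA replicate 1 and 84 by limma-voom, where 1.33%, 1.72% and 1.17% of all rose. In knockout 1, where at most 0.307% of all rose in these fits, 3 rose by limma-voom, 0 without its footprint replicate 2, 1 without either of its own RNA replicates, 3 without either footprint replicate of knockout 2, and 8 and 9 without wild-type RNA replicate 1 and 2.

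The median change in efficiency was larger in weakly expressed long transcripts, which is a description, since the RNA counts that order them also enter efficiency. By RNA CPM per 1000 units of listed length, the 239 least abundant long transcripts (131 tested) had a median log2 change in efficiency of 0.56 in knockout 1 and 0.74 in knockout 2. The 239 of middle abundance (238 tested) had 0.36 and 0.58, and the 240 most abundant 0.18 and 0.35. The least abundant had the fewest counts, so their values are the least precise, and they entered only where their footprints passed the count rule. RNA medians, taken over all 239, 239 and 240 transcripts, showed no such order. From least to most abundant they were -0.16, -0.18, -0.12 for knockout 1, against -0.24, -0.30, -0.26 for knockout 2. They include transcripts not tested for efficiency, mostly among the least abundant, so the RNA and efficiency medians are not over like sets. Footprint medians, over the tested transcripts, fell with abundance for knockout 1 (0.30, 0.21, 0.07). For knockout 2 they had no steady order (0.28, 0.32, 0.09).

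Whether the change with length continues, flattens or turns beyond 2000 was read from the median per length class and from the slope of a broken line. From the class just below 2000 (above 1200) through the 5 classes beyond it, the median RNA change was -0.085, -0.12, -0.14, -0.14, -0.17 and -0.21 in knockout 1. In knockout 2 it was -0.17, -0.24, -0.31, -0.31, -0.32 and -0.30. Over all 718, the RNA medians of knockout 1 thus went on falling to the end of the range, and those of knockout 2 were level beyond 2500. The fit was also read with only the transcript of highest count, of any length, kept in each block. That left 260 long transcripts, although 408 blocks held any, and it favours abundant ones. The medians beyond 2000 were then -0.14, -0.16, -0.14, -0.14 and -0.21 in knockout 1, level up to 5000. The last class of knockout 2 was at -0.60, over 12 transcripts. Both orders thus depend on which transcripts are kept.

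The footprint medians beyond 1200 had no steady order. They were 0.10, 0.21, 0.10, 0.04, 0.16 and 0.13 in knockout 1 and 0.14, 0.20, 0.31, 0.02, 0.18 and 0.23 in knockout 2. Those of efficiency were 0.20, 0.30, 0.29, 0.18, 0.36 and 0.44 in knockout 1 and 0.34, 0.50, 0.55, 0.46, 0.49 and 0.67 in knockout 2. They rose across 2000, dipped from 3000 to under 4000 in both knockouts (with 1 transcript per block, only in knockout 1), and were highest at 5000 or more, a class of 35 tested transcripts in 18 blocks.

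The class of 5000 or more also held the highest share of efficiency calls in knockout 2, with 13 of 35 transcripts raised, against 20 of 91 from 3000 to under 4000 and 205 of 1761 above 1200 and under 2000. At the threshold itself the groups were alike in direction. The 10 transcripts of 2003 to 2008 had a median RNA change in knockout 2 of -0.21, and the 17 that were shorter than 2000 by at most 10 had -0.13. Their efficiency medians in knockout 2 were 0.12 (7 tested) and 0.33 (14 tested).

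**Figure D4:**
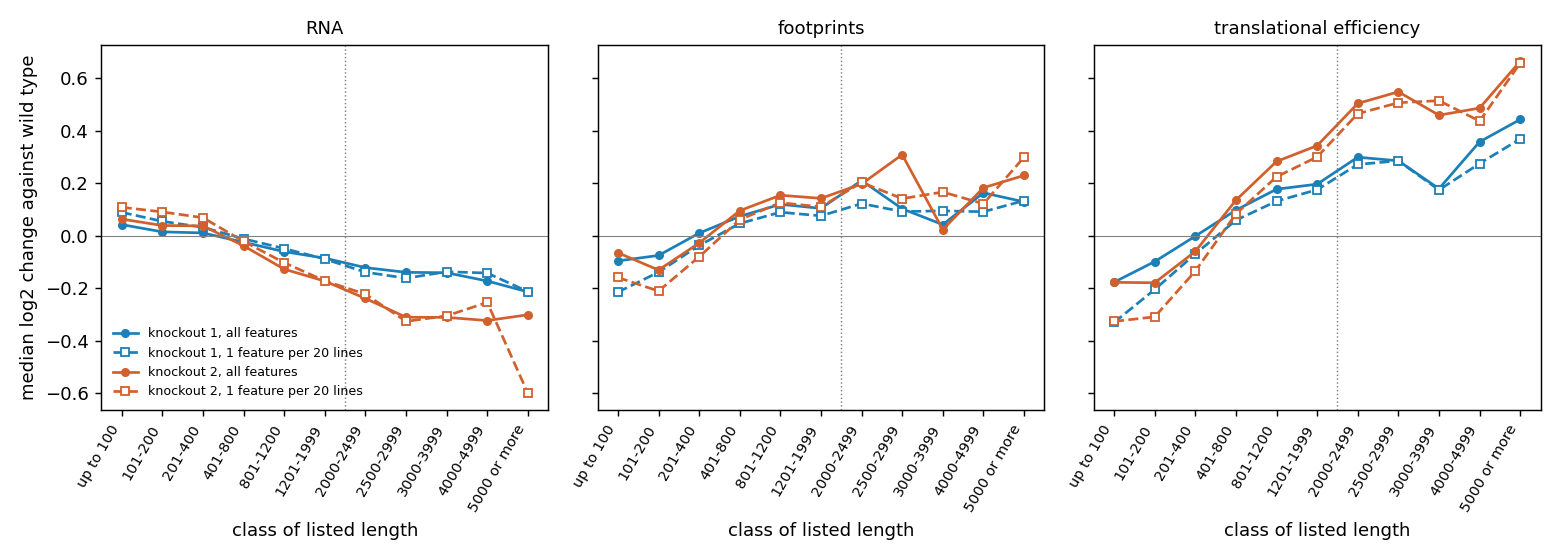
Median log2 change against wild type by class of listed length for RNA, footprints and translational efficiency, in both knockouts, with filled points for all transcripts and open points for 1 transcript per 20 table lines. RNA medians fall to -0.21 in knockout 1, efficiency medians reach 0.44 and 0.67 in the last class, and footprint medians have no steady order beyond 2000.

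The broken line was fitted in each library to relative log2 CPM over log2 listed length, with its break at 2000, over 44022 transcripts of which 609 were long. Its slopes give the log2 change per doubling of length. In RNA the slope above 2000 was 0.095 and 0.120 in the wild-type libraries against -0.010 and 0.031 in knockout 1 and against -0.133 and -0.102 in knockout 2. The 3 genotypes did not overlap, and the order was wild type, knockout 1, knockout 2.

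Compared with wild type, the RNA slope was -0.032 below 2000 and -0.097 above it in knockout 1, and -0.056 and -0.225 in knockout 2. By these slopes the RNA trend with length continued beyond 2000 in the same direction. With all transcripts it was steeper there, the slope changing by -0.065 and -0.170 against a replicate SD of 0.023. With the transcript of highest count per block, 243 long transcripts remained in the fit. The slope above 2000 was then -0.043 and -0.177, a change at 2000 of -0.098 in knockout 2 but 0.0055 in knockout 1. Among those kept, which favour abundant transcripts, no steepening was left in knockout 1. Without wild-type replicate 2 the change with all transcripts was -0.042 in knockout 1. With all transcripts, exact permutation p-values for wild type against both knockouts were 0.067 below 2000 and 0.133 above it and for the change. Over the 609 long transcripts in this fit, the class means of knockout 2 beyond 2000 were -0.29, -0.27, -0.32, -0.34 and -0.54. Those of knockout 1 were -0.16, -0.18, -0.074, -0.23 and -0.29, with no steady order. In knockout 1 the mean above 1200 and under 2000 was -0.083, below that from 3000 to under 4000. In knockout 2 the last class, of 35 transcripts, was the lowest. This held also by its median of -0.60, which was -0.30 over the 42 in the RNA test.

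In footprints the slope above 2000 was 0.039 in the wild-type library against -0.044 and 0.026 in knockout 1 and against 0.042 and -0.103 in knockout 2. The replicates of each knockout lay further apart (pooled SD 0.081) than the knockouts did from wild type, so a difference above 2000 could not be seen. Below 2000 it was -0.045 in wild type and 0.0023 to 0.053 in the 4 knockout libraries, with a replicate SD of 0.018. The knockouts thus exceeded wild type by 0.052 and 0.081 below 2000, and by -0.047 and -0.069 above it (exact permutation p = 0.2 and 0.6, where 0.2 is the smallest possible). Without footprint replicate 2 of knockout 2, its difference above 2000 was 0.0036 and no longer negative, and without replicate 1 it was -0.142. In knockout 1 it was -0.012 and -0.082 without replicate 1 and 2. The rise of footprints with length was not seen beyond 2000, where its direction is unresolved.

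The efficiency slope, footprints minus RNA relative to wild type, was 0.084 below and 0.050 above 2000 in knockout 1, and 0.137 and 0.156 in knockout 2. By this fit the efficiency trend changed by -0.034 in knockout 1 and by 0.019 in knockout 2, so it went on beyond 2000 in both. The slope above 2000 in knockout 1 was 0.085 when its footprint replicate 1 was left out, 0.015 when replicate 2 was, and 0.029 when RNA replicate 1 was, and that of knockout 2 was 0.084 without its footprint replicate 1. With 1 transcript per block it was 0.120 below and -0.0068 above in knockout 1, and 0.195 and 0.071 in knockout 2. By that fit, which kept 243 long transcripts and favours abundant ones, it flattened in both. In knockout 2 the change of slope also turned from 0.019 to -0.0699 without footprint replicate 1, to -0.0042 without wild-type RNA replicate 2, to -0.0026 with a mean count of at least 50 and to -0.0063 with the break at 3000. Whether the efficiency trend continues or flattens beyond 2000 is therefore not settled by these libraries.

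**Figure D5:**
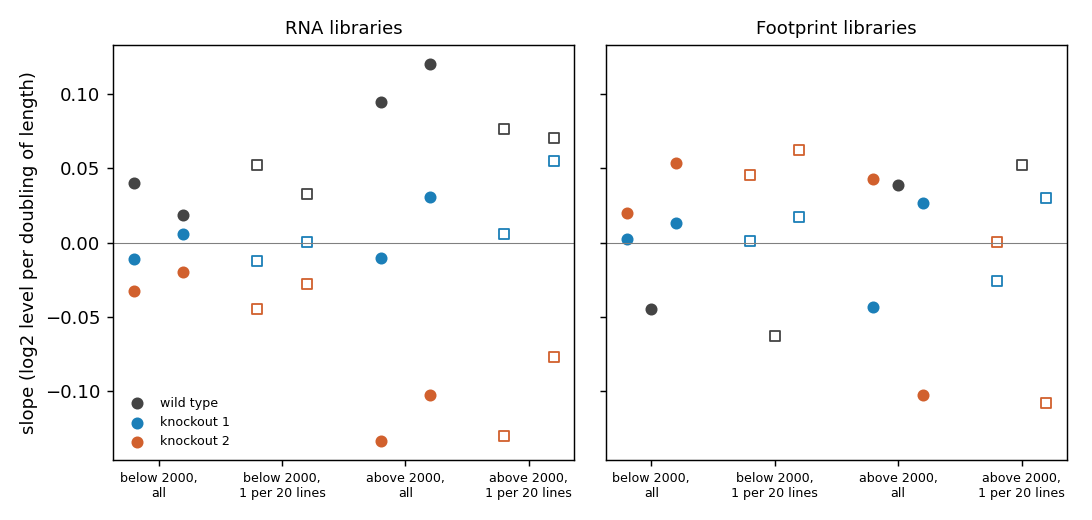
Slope of relative log2 CPM per doubling of listed length below and above 2000, with 1 point per library, for RNA (left) and footprints (right), filled for all transcripts and open for 1 transcript per 20 table lines. In RNA above 2000 the genotypes are separated (0.095 and 0.120 in wild type, down to -0.133 in knockout 2), and in footprints above 2000 the replicates of each knockout spread as widely as the genotypes.

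Single long transcripts, taken for the largest falls in RNA and rises in efficiency, show how the values lie by library. The transcript uc001ntl.4, of listed length 5881, had 31.0 and 28.5 RNA CPM in wild type against 16.7 and 19.5 in knockout 1 and against 18.7 and 17.2 in knockout 2. Both knockouts lay well below wild type and overlapped each other, with log2 changes of -0.71 ± 0.10 (SE, edgeR adjusted p = 1.3e-05) and -0.73 ± 0.10 (adjusted p = 4.4e-06). Its footprints were 29.5 CPM in wild type against 15.8 and 22.9 in knockout 1 and against 25.3 and 25.2 in knockout 2. They fell in knockout 1 (-0.63 ± 0.16, edgeR adjusted p = 0.0074), while the value in knockout 2 was -0.22 ± 0.15 (adjusted p = 0.349). Its RNA and footprints were thus both lower in knockout 1, and its efficiency changes of 0.089 and 0.51 were not called (edgeR adjusted p = 0.897 and 0.10).

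The transcript uc003zaa.3, of length 5079, fell further in RNA, while its footprint changes were not called. Its RNA was 2.52 and 3.62 CPM in wild type against 1.37 and 2.02 in knockout 1 and against 1.01 and 1.05 in knockout 2, and the 3 genotypes did not overlap. The log2 changes were -0.84 ± 0.22 (SE, edgeR adjusted p = 0.026) and -1.56 ± 0.24 (adjusted p = 3.9e-05). Its footprints were 7.74 CPM in wild type against 9.17 and 6.41 in knockout 1 and against 6.92 and 8.30 in knockout 2, on both sides of wild type. Efficiency rose in knockout 2 by 1.52 ± 0.37 (edgeR adjusted p = 0.0070), with a footprint change of -0.05. Efficiency holds the RNA fall by which this transcript was chosen, so that rise is not a separate result. The RNA call in knockout 1 was lost with DESeq2 (adjusted p = 0.104) and, with edgeR, without wild-type replicate 2 (0.230) or knockout 1 replicate 1 (0.438) or 2 (0.052).

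Among transcripts called higher in efficiency in both knockouts with at least 30 counts in every library, the 2 of largest mean rise from different blocks were uc003skn.3 and uc001ujn.3. The first, of length 2181, had near-equal RNA throughout, at 20.3 and 21.9 CPM in wild type against 18.9 and 20.7 in knockout 1 and against 18.9 and 20.3 in knockout 2. Its footprints were 19.7 CPM in wild type against 32.9 and 39.6 in knockout 1 and against 39.1 and 38.2 in knockout 2, all far above the wild-type library. Efficiency rose by 0.96 ± 0.18 (SE, edgeR adjusted p = 0.0055) and 1.08 ± 0.18 (adjusted p = 1.4e-04). The call in knockout 1 was lost without its footprint replicate 2 (adjusted p = 0.056).

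For uc001ujn.3, of length 3114, both assays contributed. Its RNA was 9.59 and 8.79 CPM in wild type against 6.66 and 7.84 in knockout 1 and against 5.08 and 6.44 in knockout 2, below wild type in all 4 knockout libraries. Its footprints were 32.3 CPM in wild type against 41.2 and 43.3 in knockout 1 and against 43.1 and 44.7 in knockout 2. Efficiency rose by 0.73 ± 0.19 (SE, edgeR adjusted p = 0.046) and 1.12 ± 0.19 (adjusted p = 1.6e-04). The call in knockout 1 was lost by limma-voom (adjusted p = 0.103) and, with edgeR, without either footprint library of either knockout, without wild-type RNA replicate 1 and without either RNA library of knockout 1 (adjusted p = 0.067 to 0.231).

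The longest transcript with at least 30 counts in every library, of length 8788, differed between the knockouts. Its RNA was 17.1 and 17.4 CPM in wild type against 17.4 and 16.9 in knockout 1 and against 7.74 and 8.84 in knockout 2. Knockout 1 overlapped wild type and knockout 2 was well below both, a log2 change of -1.05 ± 0.11 (SE) against wild type. Its footprints were 8.71 CPM in wild type against 14.2 and 14.5 in knockout 1 and against 6.40 and 6.79 in knockout 2, a rise of 0.72 ± 0.22 in knockout 1 (edgeR adjusted p = 0.032). Its changes in efficiency, 0.72 and 0.65, did not pass the test (edgeR adjusted p = 0.116 and 0.090).

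The long transcript with the most RNA per length, of length 2069 with 194 RNA CPM per 1000 units of length, went the other way. Its RNA was 373 and 372 CPM in wild type against 409 and 415 in knockout 1 and against 436 and 397 in knockout 2, higher in all knockout libraries but not called. Its footprints were 323 CPM in wild type against 259 and 249 in knockout 1 and against 274 and 219 in knockout 2, called lower in both (edgeR adjusted p = 0.033 and 0.0063). It is 1 of the 2 long transcripts whose efficiency fell in knockout 2, by 0.54 on the log2 scale (edgeR adjusted p = 0.015).

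The knockouts also differed from each other. In RNA, 118 long transcripts (57 blocks) were higher in knockout 1 than in knockout 2 and 21 lower, where 3.53% of all transcripts were higher and 3.01% lower. The 21 are 2.92% of the long transcripts, near the share of all, and include 3 that passed the count rule only through knockout 2. In footprints, 30 (4.93%) were higher and 40 (6.57%) lower, where 4.54% and 3.78% of all were. In efficiency, 0 were higher and 9 lower, where 0.445% and 0.0590% were, and at an unadjusted p under 0.05 the numbers were 2 and 132, where 6.75% and 4.57% of all were. The median difference, knockout 1 minus knockout 2, was 0.14 in RNA, -0.09 in footprints and -0.21 in efficiency.

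These values moved with single libraries. The median RNA difference was 0.090 without knockout 1 replicate 2 and 0.089 without knockout 2 replicate 1, and the median footprint difference was -0.049 and -0.045 without replicate 1 of knockout 1 and of knockout 2. The RNA count of 118 was 66 and 45 without knockout 1 replicate 1 and 2, and 65 without knockout 2 replicate 1, where 1.78%, 1.62% and 2.35% of all were called higher. The 40 transcripts lower in footprints were 19 and 62 without replicate 1 and 2 of knockout 1, 9 without replicate 1 of knockout 2, and 5 by DESeq2, where 1.37%, 4.72%, 1.46% and 0.651% of all were called lower. The last pair, 1.52% and 0.821% of the long transcripts, is near the share of all. The 9 lower in efficiency were 2 by limma-voom, 0 or 1 without footprint replicate 1 of either knockout or without RNA replicate 2 of knockout 1 or replicate 1 of knockout 2, 3 without RNA replicate 1 of knockout 1, and 20 without either wild-type RNA library, where at most 0.179% of all were called lower in these fits.

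A few long transcripts were far apart between the knockouts in RNA, chosen here after their values were seen. There were 17, in 10 blocks, that were called and over 4-fold apart, 10 of them higher in knockout 1 and 7 lower, where 0.393% and 0.199% of all transcripts were. Of the 7, 3 passed the count rule only through knockout 2, where they were high, so they had to differ. A set of 3 neighbouring transcripts of length 2680 to 2768 had 46 to 48 and 29 to 31 RNA counts in the wild-type libraries, 25 and 48 to 49 in knockout 1, and 0 in both knockout 2 libraries. Against a floor of 3 counts over both libraries, knockout 2 was at least 20.3-fold lower than wild type for each of them. A pair of neighbouring table entries of length 2716 and 2723, with nearly equal counts, lay on opposite sides of wild type in the 2 knockouts. The first had 2130 and 1308 RNA counts in wild type against 339 and 396 in knockout 1 and against 2991 and 2684 in knockout 2, with 27 footprint counts in wild type against 9 and 16 in knockout 1 and against 271 and 112 in knockout 2.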

How the data were processed

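The authors deposited whole-number counts for each table row, 1 file per library with the same 182398 rows in each. Listed length stands in a column of other unit, not stated by the authors in the files. Per the submitters' processing notes, CASAVA 1.8, Bowtie2 2.1.0, TopHat2 2.0.9 and hg38 were used, with no role or order. Not given in the sources used here are the counting program, its strand setting and how shared reads were treated, so overlapping or antisense transcripts and paralogues cannot be told apart. Per the labels' protocols, footprints were made with RNase I and RNA libraries with TruSeq.

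Rows with identical counts were merged (66016 features with a count), each with the longest length among its rows. edgeR 4.0.16 (R 4.3.3; quasi-likelihood, robust, two-sided, TMM within assay, Benjamini-Hochberg over all features) was fitted on features that reached 10 counts in 2 or more libraries of an assay. All libraries shared 1 spread. SEs are the change over the square root of F. Efficiency was the interaction in 1 model. DESeq2 1.42.0 and limma 3.58.1 (limma-voom) were alternatives. The fits were tested on simulated data. In each library the broken line was fitted to log2 CPM minus the mean of the 3 genotype means, over features of listed length of at least 20 tested for efficiency.

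The long transcripts, classes and tests were chosen with earlier results of these data known. The transcripts described singly are the longest with at least 30 counts in every library, the one with most RNA per length, and the 2 that fell most in RNA and the 2 that rose most in efficiency. The last 4 were taken by the mean of both knockouts among those called in both, with at least 30 counts in every library and from different blocks.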

Additional observations from a re-analysis of the deposited data

Results flagged for a closer look

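Differences between the knockouts passed edgeR's test of that difference for 118 long transcripts higher in knockout 1 in RNA and 21 lower, where 3.53% and 3.01% of all transcripts were. They passed for 30 higher and 40 lower in footprints, where 4.54% and 3.78% were, and for 9 lower in efficiency, where 0.0590% were. The 21 and the 30, at 2.92% and 4.93% of the long transcripts tested, are near the shares of all transcripts. The longest transcript with at least 30 counts in every library, of length 8788, was higher in knockout 1 than in knockout 2 by a log2 difference of 1.05 in RNA and 1.13 in footprints. For uc001ntl.4 the footprint level in knockout 1 minus that in knockout 2 was -0.40 on the log2 scale (edgeR adjusted p = 0.035).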

How the results depend on the processing

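The median RNA change of the long transcripts kept its negative sign, and the median footprint and efficiency changes their positive sign, against wild type under every alternative run, while counts of calls and slopes beyond 2000 moved. Percentages here are of the long transcripts tested. The single wild-type footprint library cannot be left out of a comparison with wild type. Footprint depth limits what can be called in weakly expressed long transcripts, and no permutation over libraries can pass 0.05.

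Keeping the transcript of highest count per 20 lines left 243 long transcripts in the slope fits and favours abundant ones. The change of the RNA slope at 2000 then turned to 0.0055 in knockout 1 and was -0.098 in knockout 2. That of the efficiency slope in knockout 2 turned to -0.124, and the cause was not tested. The RNA slopes above 2000 were then -0.043 and -0.177, the efficiency slope of knockout 2 was 0.071, and the median footprint change in knockout 1 was 0.115. Of the long transcripts kept, 1.23% rose in efficiency in knockout 1, where 0.191% of all transcripts in the same fit did.

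DESeq2 called 1.97% higher in footprints in knockout 1 and 5.25% in knockout 2, where it called 0.513% and 1.27% of all. It called 0.821% lower in knockout 1 than in knockout 2, where it called 0.651% of all. By limma-voom, efficiency rose in 0.493% and 13.8%, where it rose in 0.0817% and 1.17% of all. It was lower in knockout 1 than in knockout 2 in 0.328%, where 0.0159% of all were. With no count filter, the median footprint change in knockout 2 was 0.234. In that setting 2.67% were lower in efficiency in knockout 1 than in knockout 2, where 0.0901% of all were. With a mean count of at least 50, 10.99% rose in footprints in knockout 1 and 33.9% in efficiency in knockout 2, where 4.76% and 4.93% of all did. The RNA slope of knockout 1 above 2000 was then -0.069, a change of -0.026.

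With a minimum length of 1500, the median efficiency change in knockout 2 was 0.437, and the footprint share in knockout 1 was 1.17-fold of wild type. In efficiency 0.767% were lower in knockout 1 than in knockout 2, where 0.0590% of all were. With a minimum of 3000, the median footprint changes were 0.121 and 0.095 and their difference between knockouts -0.040. In efficiency 2.30% were then lower in knockout 1 than in knockout 2, where 0.0590% of all were. In knockout 2 the RNA share was 0.750-fold and the footprint share 1.15-fold of wild type. With the break at 1500, the RNA slope of knockout 2 above it was -0.190, a change of -0.136. With the break at 3000, the RNA slopes above it were -0.146 and -0.311, changes of -0.113 and -0.254, and the footprint slope of knockout 2 was -0.180, a change of -0.260. Leaving out lengths of 5000 or more, chosen after seeing the data, moved no slope beyond its spread.

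Leaving out 1 library at a time, the share that fell in RNA was 2.38% to 10.7% in knockout 1 and 23.4% to 37.2% in knockout 2, and the median change in knockout 2 was -0.34 to -0.23. The change of RNA slope was -0.089 to -0.042 and -0.193 to -0.146. Footprints rose in 3.45% to 10.5% and 8.94% to 22.3%, with a median of 0.114 to 0.175 in knockout 1. Efficiency rose in 0% to 1.48% and 11.5% to 29.1%. Between knockouts, 6.28% to 22.1% were higher in RNA in knockout 1 (median 0.089 to 0.195), 1.52% to 10.2% lower in footprints (median -0.12 to -0.045) and 0% to 3.29% lower in efficiency (median -0.27 to -0.17).

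Same-numbered RNA libraries had correlated deviations of -0.089, 0.135 and 0.047 and footprint libraries of 0.00035, so the numbers were not taken to pair the libraries. With the replicate number as a block, 13.4% and 41.8% fell in RNA, where 2.90% and 7.78% of all did. Efficiency rose in 1.15% and 26.9%, where it rose in 0.263% and 3.01% of all. The share lower in efficiency in knockout 1 than in knockout 2 was 6.89% against 1.48%, where 0.580% against 0.0590% of all were. That fit also left out every wild-type library, so the effect of the block alone cannot be read from it. The share higher in RNA in knockout 1 than in wild type was 2.23% against 1.11%, where 3.22% against 2.18% of all were.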
